A study of Mus musculus with 8 samples.

Results

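The B-lymphoid genes described here are *Pax5*, *Cd79a*, *Cd79b*, *Vpreb1*, *Rag1*, *Rag2*, *Il7r*, *Cd74* and *Ciita*, 9 of the 22225 protein-coding genes of the GENCODE vM1 annotation of the mouse genome build mm9. They were listed by name and located by that annotation. Open chromatin was mapped by ATAC-seq, an assay that uses the Tn5 transposase to cut accessible DNA and to join sequencing adapters to the cut ends. The cells were bone marrow stromal cells of C57BL/6J mice with a wild type genotype at 6 weeks after birth. By the study's methods they were sorted as cells without CD31, CD45 and TER119 that carry Sca-1 and PDGFR-α, and then parted by CD24, CD39 and CD54. CD45 is carried by B-lineage cells, so this gate selects against them. The 7 libraries carry the titles ATAC1 to ATAC7, and 1 Input library was the control for all peak calls. All 7 share strain, genotype, tissue and age, the labels do not tie a title to a sorted population, and each title has 1 library, so no difference below has a replicate check and none was tested.

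B lymphocytes are made in the bone marrow, where progenitors depend on interleukin 7 and other signals of the stroma. Transcription factors such as EBF1 and PAX5 commit them to the B lineage, the RAG recombinase assembles immunoglobulin genes, and the pre-B cell receptor and then the B cell receptor test the products. Mature B cells also present antigen on MHC class II. Most of these steps are particular to lymphoid cells, and the comparison asks how far the genes for them were open in libraries made from stroma.

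Members differed widely. Within 1000 bases of an annotated start site, a peak was called at *Vpreb1* in 7 libraries, at *Pax5* in 5, at *Cd74* in 2, and at *Cd79a* and *Ciita* in 1 each. *Cd79b*, *Rag1*, *Rag2* and *Il7r* had none in any library. The *Vpreb1* and *Pax5* peaks lay at starts of non-coding transcripts, and at starts of protein-coding transcripts there were only 4 calls, in ATAC1 (*Cd74*, *Ciita*) and ATAC5 (*Cd79a*, *Cd74*). Where no peak is given, none passed the authors' threshold, and weaker signal may be there. The reads are a bulk signal, so a few cells with a widely open site and many cells with a slightly open one cannot be told apart.

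A few stretches at or near these genes, with and without a peak, are shown first, read from the genome NCBIM37, which is mm9. The *Cd79a* stretch (chr7:25682237-25682399, + strand) is the part of the outer region of its only start-site peak that lies upstream of the start, and the *Cd79b* stretch (chr11:106176077-106176239, - strand) is the same length upstream of a partner gene without a peak. The *Pax5* stretch (chr4:44717405-44717510, - strand) is the intronic ATAC1 peak, and the *Ciita* stretch (chr16:10488141-10488230, + strand) is the ATAC1 peak before an inner start. The stretch in the *Rag2* intron (chr2:101469148-101469364, - strand) lies upstream of a start of *B230118H07Rik* within the ATAC5 outer region, where the highest read numbers near a recombinase gene were counted. The last (chr7:25675587-25675708, + strand) is the region between *Rps19* and *Cd79a*. Capitals mark matches, on either strand, to short motifs: CAGGTG (E-box), CCCNNGGG (EBF core), TGTGGT (RUNX), TGGGAA (Ikaros), TTCNNNGAA (GAS), CCACNAGG (CTCF core) and AGGTGGCAG. The last was added after the sequences had been seen.
Cd79a upstream: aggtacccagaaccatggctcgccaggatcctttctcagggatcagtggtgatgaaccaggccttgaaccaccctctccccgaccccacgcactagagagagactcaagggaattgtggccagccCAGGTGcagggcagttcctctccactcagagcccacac
Cd79b upstream: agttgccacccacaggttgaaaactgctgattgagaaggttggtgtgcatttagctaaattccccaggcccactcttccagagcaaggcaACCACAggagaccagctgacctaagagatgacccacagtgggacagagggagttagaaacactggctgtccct
Pax5 intron: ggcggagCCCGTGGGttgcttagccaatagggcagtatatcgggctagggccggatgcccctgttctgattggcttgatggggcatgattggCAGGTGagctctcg
Ciita inner start: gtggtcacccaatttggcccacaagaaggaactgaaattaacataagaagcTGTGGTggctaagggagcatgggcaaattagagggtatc
Rag2 intron: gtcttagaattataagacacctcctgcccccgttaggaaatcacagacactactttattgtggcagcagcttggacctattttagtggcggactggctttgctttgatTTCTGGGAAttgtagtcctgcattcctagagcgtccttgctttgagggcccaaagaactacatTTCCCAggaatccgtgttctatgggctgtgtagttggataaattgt
Rps19 to Cd79a: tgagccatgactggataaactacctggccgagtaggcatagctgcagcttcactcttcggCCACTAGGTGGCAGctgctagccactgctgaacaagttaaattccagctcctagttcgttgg

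These short motifs are common, and a match describes letters, not a bound factor. The E-box of the *Cd79a* stretch is held by 11.1% of promoters of the same length, and the RUNX motif of the *Cd79b* stretch by 8.26%. The *Pax5* stretch holds an E-box, as do 6.89% of all merged peak regions cut to its length, and an EBF core, as do 5.65%. A RUNX motif like that of the *Ciita* stretch is held by 8.59% of regions. The *Rag2* intron stretch has 2 Ikaros matches, of which the first lies inside its GAS match, and 19.2% of merged regions of that length hold the former and 5.96% the latter. In the region between *Rps19* and *Cd79a*, the CTCF core (3.72% of regions) and AGGTGGCAG (0.714%) overlap by their last and first letters. ETS (CCGGAAGT), PU.1 (GAGGAAGT) and GC box (GGGCGG) letters were also searched and are in none of the 6 stretches.

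The promoters of the members were poor in CpG dinucleotides. Over the 250 bases before the most upstream coding start, the observed over expected CpG ratio was 0.119 in the median member and 0.506 in the median of 22214 promoters. All 9 members lay below that median, from 0 in *Cd79b* and 0.0659 in *Rag1* to 0.446 in *Pax5*. The GC content was below the median of all promoters (54.4%) in 8 of 9, with *Cd79a* at 57.6% as the exception. An E-box was present in 3 of the 9 (*Cd79a*, *Vpreb1*, *Rag1*), against 16.9% of all promoters, an EBF core in 1 (*Pax5*) against 13.2%, and a GC box in 1 (*Cd74*) against 40.2%.

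The libraries differed in size. They held 15188 (ATAC7) to 32280 (ATAC2) peaks, whose deposited counts summed to 3437628 (ATAC7) to 8766021 (ATAC5) reads, and the weakest peak of a list had 21 to 28 reads. Counts are reads in the outer region of a peak, given for the library and for Input. Outer regions differ in width between libraries, so read numbers also depend on width. The fold is the authors' scaled ratio of the first to the second, and the rank of a peak is given as a percent of its list, with low values for strong peaks. Intervals of folds are 95% and cover counting error only.

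**Figure D1:**
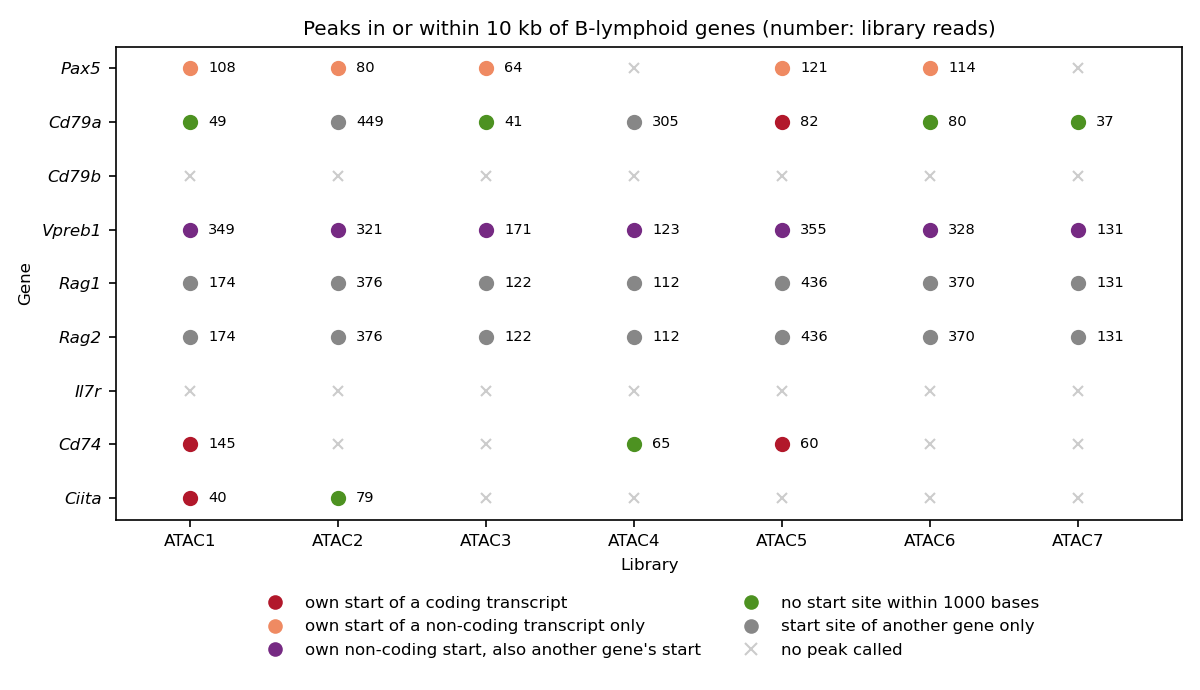
Peaks in or within 10 kb of the 9 genes (rows) in 7 libraries (columns), 1 point for each gene and library, coloured by the start site the peak lies at, with its library reads beside it. Where several peaks were called, own starts were preferred, then peaks at no start site, then the best rank. Red points, at own coding starts, are seen only in ATAC1 and ATAC5, and *Cd79b* and *Il7r* have crosses in all 7 libraries.

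By library, the members with a start-site peak numbered 4 of 9 in ATAC1, where 49.1% of all protein-coding genes had one, and 4 in ATAC5, against 52.9%. There were 2 in ATAC2 (all genes 50.3%), 2 in ATAC3 (43.6%) and 2 in ATAC6 (51.7%). ATAC4 (43.8%) and ATAC7 (42.2%) had 1 each, *Vpreb1*. The 44.4% of members in ATAC1 and ATAC5 was below the share of all genes by no more than 1 gene of 9. Over all gene and library pairs, 16 of 63 had a peak. Of all genes, 43.2% were called in 0 libraries and 36.9% in 7. Of the members, 4 (44.4%) were called in 0 libraries, close to the share of all genes. In 7 libraries there was 1 (11.1%), and 4 lay between.

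Counted at starts of protein-coding transcripts alone, a choice made after the data had been seen, the members numbered 2 of 9 in ATAC1 (all genes 48.7%) and 2 in ATAC5 (52.3%). No member was counted in ATAC2 (49.8%), ATAC3 (43.2%), ATAC4 (43.4%), ATAC6 (51.2%) or ATAC7 (41.8%). Thus 4 of 63 pairs were left.

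In the gene or within 10 kb of it, 38 of 63 pairs had a peak. They were 7 members in ATAC1 (all genes 60.2%), 6 in ATAC2 (63.9%), 5 in ATAC3 (53.6%), 5 in ATAC4 (53.4%), 6 in ATAC5 (65.2%), 5 in ATAC6 (63.9%) and 4 in ATAC7 (52.3%). Most of these peaks lay at the start site of a neighbour, since the 59 peaks were divided into 32 at another gene's start alone, 7 at an own and another start, 9 at an own start alone and 11 at none. With peaks at other genes' starts left out, 15 pairs were kept. ATAC1 then had 4 members (all genes 45.8%), ATAC2 2 (49.8%), ATAC3 2 (36.5%), ATAC4 1 (36.6%), ATAC5 3 (51.9%), ATAC6 2 (50.3%) and ATAC7 1 (35.5%). The 20 peaks behind them were weak for their lists. They had 37 to 145 reads with a median of 70.5, against a median of 111 to 169 reads over all peaks of a library. In the better-ranked 50% there were 4 of the 20. The full lists include peaks at any gene's start, while those at other genes' starts were left out of the 20.

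**Figure D2:**
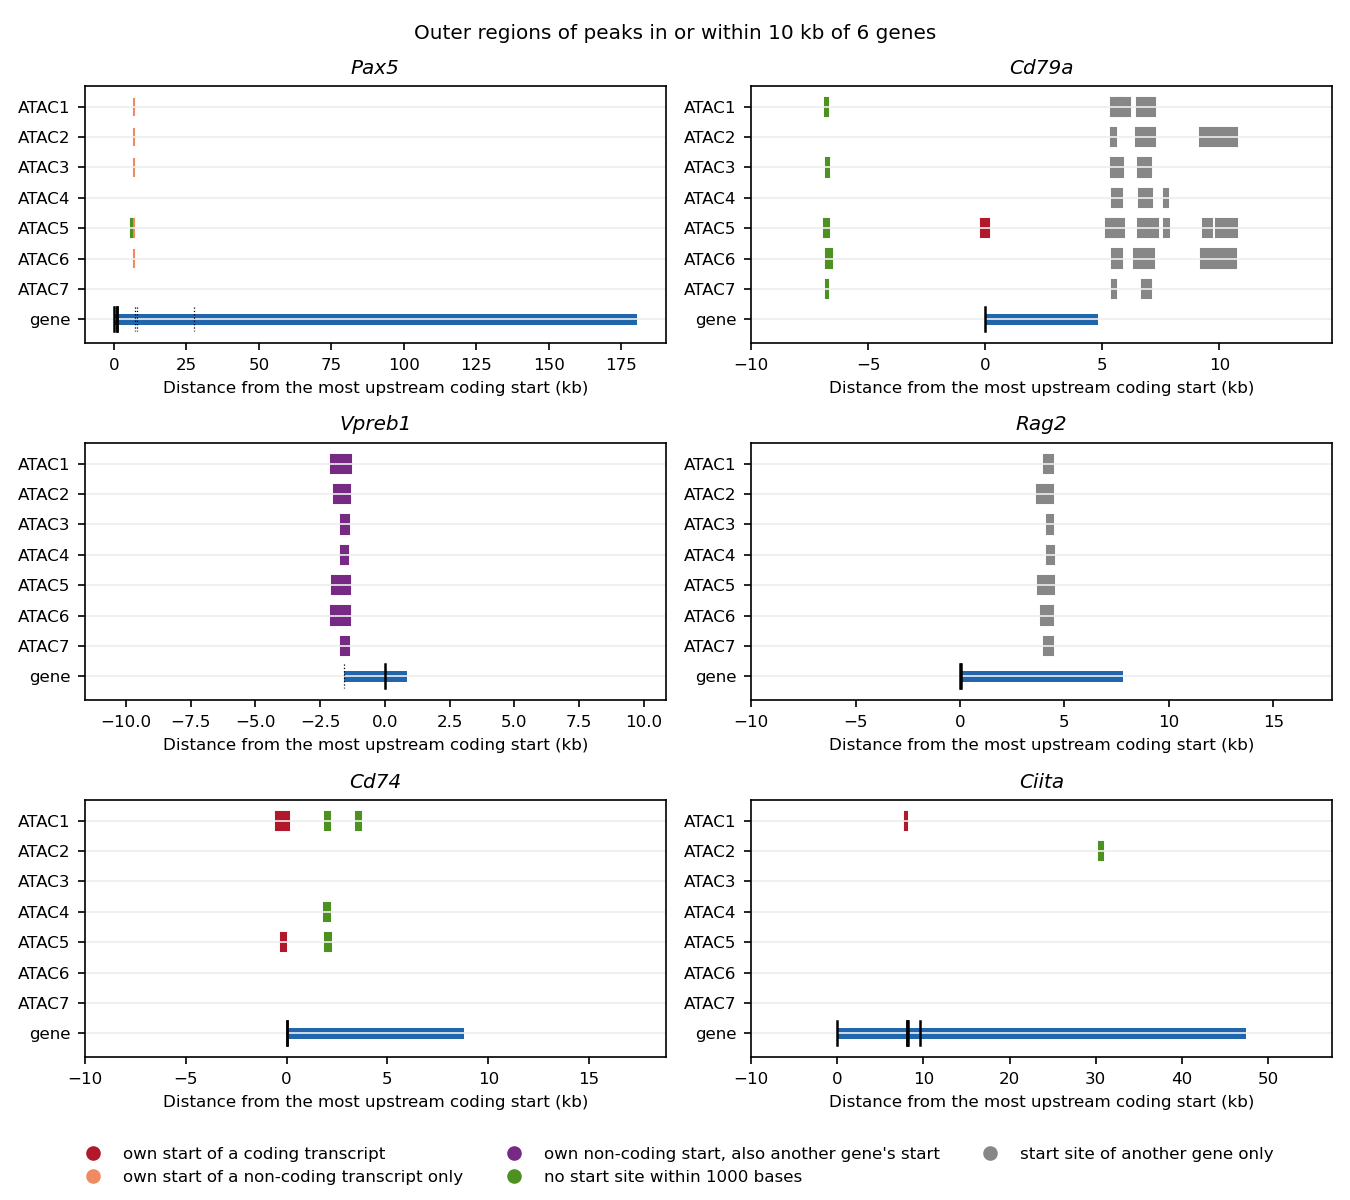
Outer regions of peaks (blocks) in 7 libraries around 6 genes, by distance in kb from the most upstream coding start, positive in the direction of transcription. The blue bar is the gene, solid ticks are coding starts and dotted ticks non-coding starts. Blocks at *Vpreb1* and in *Rag2* recur in 7 libraries and lie away from the coding starts, while *Cd79a* has a block at its start only in ATAC5.

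*Pax5* encodes the factor that commits progenitors to the B lineage and holds them in it. The gene (ENSMUSG00000014030.9) covers chromosome 4 from 44544017 to 44724318 on the minus strand. Its peaks lay in an intron (44717315 to 44717510), which the stretch printed above covers in part, 510 to 580 bases from the start of a non-coding transcript at 44716878 and at least 5823 bases from any coding start. The region had 108 reads against 28 Input reads in ATAC1, 80 against 25 in ATAC2, 64 against 18 in ATAC3, 121 against 34 in ATAC5 and 114 against 28 in ATAC6. No peak was called there in ATAC4 or ATAC7, where the nearest one was 44979 and 44973 bases from a *Pax5* start and lay at *Zcchc7*. The folds ran from 3.59 (2.10 to 6.43) in ATAC3 to 6.41 (4.21 to 10.1) in ATAC6, and all 5 intervals overlap. They were low for start-site peaks, at the percentile 15.8 to 23.7 of the folds of such peaks in the same library. ATAC5 had a further peak in this intron (44718193 to 44718230) with 42 reads against 4, of fold 17.9 (6.53 to 69.1) and rank 97.1%. The coding starts of *Pax5*, between 44723280 and 44724318, had no peak in any library.

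*Cd79a* and *Cd79b* encode the chains that carry the signal of the B cell receptor into the cell. *Cd79a* (ENSMUSG00000003379.7, chromosome 7, 25682400 to 25687216, plus strand) had a start-site peak in ATAC5 alone, at 25682416 to 25682500. It was centred 58 bases inside the untranslated first part of the gene and had 82 reads against 14 Input reads, a fold of 10.03 (5.65 to 19.2) and a rank of 71.1%. In the other 6 libraries, the peak nearest to the *Cd79a* start was 5483 to 5668 bases away, at *Arhgef1*.

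Upstream of *Cd79a*, the region towards *Rps19* (25675587 to 25675708), printed above for its overlapping CTCF core and AGGTGGCAG, was called in 5 libraries. It had 49 reads against 7 in ATAC1, 41 against 10 in ATAC3, 73 against 14 in ATAC5, 80 against 13 in ATAC6 and 37 against 7 in ATAC7. These are small numbers, and the folds of 4.13 (2.04 to 9.26) in ATAC3 to 9.68 (5.36 to 19.0) in ATAC6 have overlapping intervals. It lay 6726 to 6774 bases from the *Cd79a* start and 1868 to 1915 bases from a start of *Rps19*, a gene of the small ribosomal subunit. Downstream, the starts of *Arhgef1*, which encodes an exchange factor for small GTPases, gave 25 of the 59 peaks. Their region at 25688980 to 25689396 had 305 (ATAC3, ATAC4) to 617 (ATAC1) reads in the 7 libraries and folds of 9.05 to 21.1, and that at 25687611 to 25688410 had 58 to 218 reads per peak. The other 5 regions at *Arhgef1* starts were called in 1 or 2 libraries each.

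*Cd79b* (ENSMUSG00000040592.5, chromosome 11, 106172655 to 106176076, minus strand) had no peak in or within 10 kb in any library. The nearest lay 37887 to 37952 bases from its start in all 7, at a start of *Tcam1*, with 44 (ATAC2) to 126 (ATAC1) reads. The chains thus differed in ATAC5, where 1 of the 2 start sites had a peak, and were alike in having none in the other 6 libraries.

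*Vpreb1* encodes a part of the surrogate light chain, which takes the place of the light chain in the pre-B cell receptor. The gene (ENSMUSG00000059305.4) covers chromosome 16 from 16868495 to 16870936 on the minus strand. A region at its non-coding start (16870801 to 16871236) was called in all 7 libraries. It had 349 reads against 66 Input reads in ATAC1, 321 against 57 in ATAC2, 171 against 37 in ATAC3 and 123 against 36 in ATAC4. ATAC5 had 355 against 61, ATAC6 328 against 63 and ATAC7 131 against 37. The outer regions were 288 (ATAC4) to 788 (ATAC1) bases wide. Per kb of outer region the reads ranged only from 409 (ATAC7) to 531 (ATAC3). The peaks were 0 to 49 bases from starts of *Top3b*, a DNA topoisomerase gene transcribed in the other direction, and 1493 to 1696 bases from the coding start of *Vpreb1* at 16869348. ATAC-seq does not mark strand, so the overlapping starts cannot be told apart.

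The folds at this shared start were 8.90 in ATAC2, 9.97 in ATAC5 and 8.20 in ATAC6, then 6.50 in ATAC1, and 4.66 in ATAC3, 3.87 in ATAC4 and 3.91 in ATAC7. The interval of ATAC5 (7.58 to 13.3) did not overlap those of ATAC3 (3.25 to 6.85), ATAC4 (2.65 to 5.78) or ATAC7 (2.70 to 5.79), while neighbours in this order overlapped. The same libraries differ over all peaks, with a median fold of 9.27 to 10.9 in ATAC2, ATAC5 and ATAC6 and of 5.77 to 6.13 in ATAC3, ATAC4 and ATAC7. Among start-site peaks of its own library, the region stood at the percentile 56.0 in ATAC2, 44.6 in ATAC5, 38.9 in ATAC1, 36.7 in ATAC6, 35.4 in ATAC3, 21.3 in ATAC7 and 18.4 in ATAC4. On that scale ATAC6 was below ATAC1 and close to ATAC3, unlike the order of the folds.

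*Rag1* and *Rag2* encode the recombinase that cuts immunoglobulin and T cell receptor genes for V(D)J joining, and they lie tail to tail on chromosome 2. *Rag1* (ENSMUSG00000061311.6) spans 101478439 to 101489658 on the minus strand and *Rag2* (ENSMUSG00000032864.3) 101464875 to 101472685 on the plus strand. Neither had a start-site peak in any library. A region in an intron of *Rag2* (101468916 to 101469254) lies within 10 kb of both genes and was called in all 7. It holds starts of *B230118H07Rik*, a gene on the other strand, at 2 to 41 bases, and was 4155 to 4273 bases from a *Rag2* start and 20482 to 20600 bases from the *Rag1* start.

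At the *Rag2* intron region ATAC1 had 174 reads against 25 Input reads, ATAC2 376 against 29, ATAC3 122 against 12 and ATAC4 112 against 13. ATAC5 had 436 against 29, ATAC6 370 against 28 and ATAC7 131 against 23. The outer regions were 309 (ATAC3) to 791 (ATAC2) bases wide, with 294 (ATAC7) to 658 (ATAC6) reads per kb. ATAC2, ATAC5 and ATAC6 were high, with folds of 20.5 (14.03 to 31.0), 25.7 (17.7 to 38.9) and 20.8 (14.2 to 31.7). The folds of ATAC1 (8.55, 5.60 to 13.6) and ATAC7 (6.29, 4.02 to 10.3) had intervals below all of these, and those of ATAC3 (10.3, 5.66 to 20.4) and ATAC4 (9.75, 5.48 to 18.9) overlapped both sets. Within the start-site peaks of a library, the region stood at the percentile 92.9 in ATAC2, 91.1 in ATAC5, 88.4 in ATAC3, 85.6 in ATAC6 and 82.5 in ATAC4, and at 57.1 in ATAC1 and 58.1 in ATAC7. Here the direction of the difference between ATAC1 and ATAC3 was opposite in reads and in percentile. Per kb of outer region, ATAC1 had 389 reads and ATAC3 395.

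**Figure D3:**
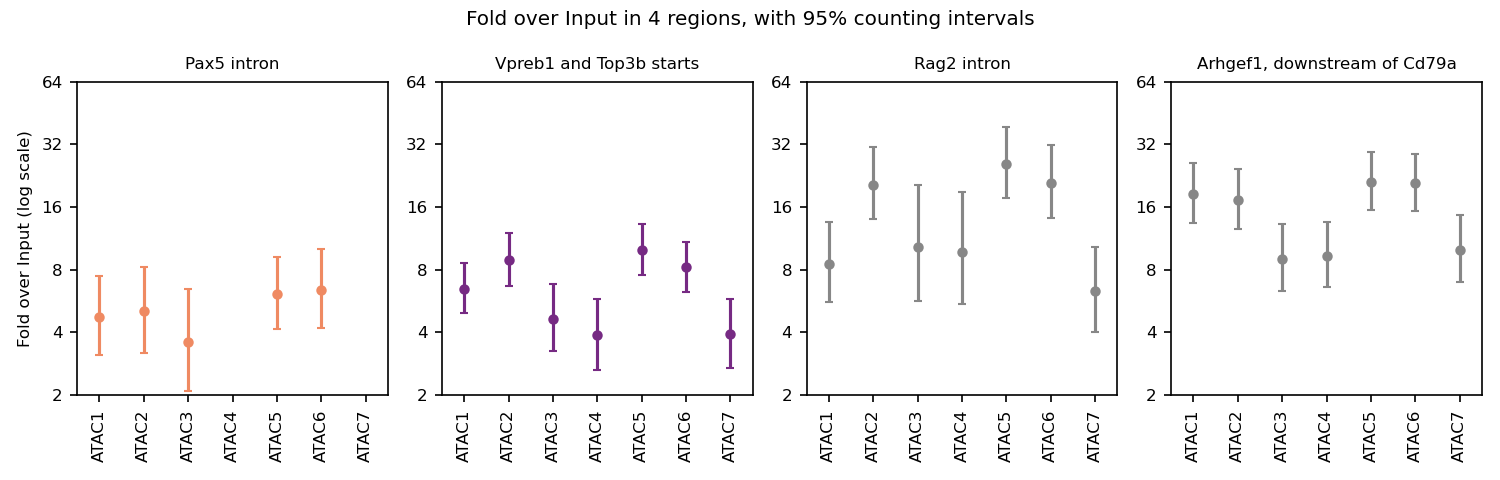
Fold over Input (log axis) in 4 regions near the genes, 1 point for each library with a peak, with 95% counting intervals as bars. The *Rag2* intron runs from 6.29 in ATAC7 to 25.7 in ATAC5 and the shared start of *Vpreb1* and *Top3b* from 3.87 in ATAC4 to 9.97 in ATAC5, whereas the 5 bars of the *Pax5* intron overlap.

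*Il7r* encodes the chain of the interleukin 7 receptor that binds the cytokine. The gene (ENSMUSG00000003882.4, chromosome 15, 9435916 to 9459631, minus strand) had no peak in or within 10 kb in any library. The nearest peaks were 66051 bases from its start in ATAC1 and 66057 in ATAC5, in 1 region (9393428 to 9393733), and 218815 to 389448 bases away in the other 5 libraries, at starts of *Spef2*, *Lmbrd2* and *Skp2*. Of the 9 genes, *Il7r* and *Cd79b* were those with nothing called within 10 kb.

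*Cd74* encodes the invariant chain, which guides MHC class II molecules to the compartment where they take up peptide. It is ENSMUSG00000024610.8, on chromosome 18 from 60963502 to 60972300 on the plus strand. Its start site had a peak in ATAC1 (60963042 to 60963339) with 145 reads against 18 Input reads and in ATAC5 (60963290 to 60963409) with 60 against 10. The folds, 9.89 (6.05 to 17.2) and 10.3 (5.22 to 22.5), have overlapping intervals, and the ranks were 68.5% and 86.9%. These peaks overlap in part and lay 312 and 153 bases upstream. An intronic region (60965437 to 60965610) had 68 reads against 7 in ATAC1, 65 against 8 in ATAC4 and 79 against 7 in ATAC5, with folds of 11.9 (5.49 to 30.8), 9.19 (4.40 to 22.2) and 19.3 (8.96 to 49.6). ATAC1 had a further intronic peak (60967049 to 60967125) of 59 reads against 16. In ATAC2, ATAC3, ATAC6 and ATAC7 the nearest peak was 29352 to 29364 bases away, at *Rps14*.

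*Ciita* encodes the coactivator that turns on MHC class II genes and also *Cd74*. The annotation gives it 2 entries, one inside the other (ENSMUSG00000022504.8 and ENSMUSG00000075404.4), which were joined by name to chromosome 16 from 10480237 to 10527657 on the plus strand. Its peak in ATAC1 (10488141 to 10488230) lay 86 bases before an inner coding start at 10488271. It had 40 reads against 10 Input reads, a fold of 4.91 (2.42 to 11.02) and a rank of 98.4%, near the end of the list. ATAC2 had a peak in a coding exon (10510720 to 10511032) with 79 reads against 34, of fold 3.67 (2.43 to 5.66). In the other 5 libraries the nearest peak was 53336 to 53352 bases from a start of *Ciita*, at *Dexi*.

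The calls at own coding starts were thus in ATAC1 and ATAC5. Depth and pan-haematopoietic markers are given beside them. ATAC5 had the most reads in peaks of the 7 (8766021), followed by ATAC6 (8580233) and ATAC1 (6814592). With the 15188 best-ranked peaks of every library, *Cd79a*, *Cd74* and *Ciita* had no start-site peak, while *Pax5* kept 4 libraries and *Vpreb1* 7. Of 8 pan-haematopoietic markers, 5 had a start-site peak in ATAC1, ATAC3 and ATAC5, 3 in ATAC4 and ATAC6, 2 in ATAC7 and 1 in ATAC2. *Ptprc*, the gene for CD45 and singled out after its values were seen, was among those called in ATAC1, ATAC3, ATAC5 and also ATAC7, where its peaks held 58 to 84 reads and at most 2 of Input. The part of depth, or of cells other than stroma, in the B-lymphoid calls was not tested.

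**Figure D4:**
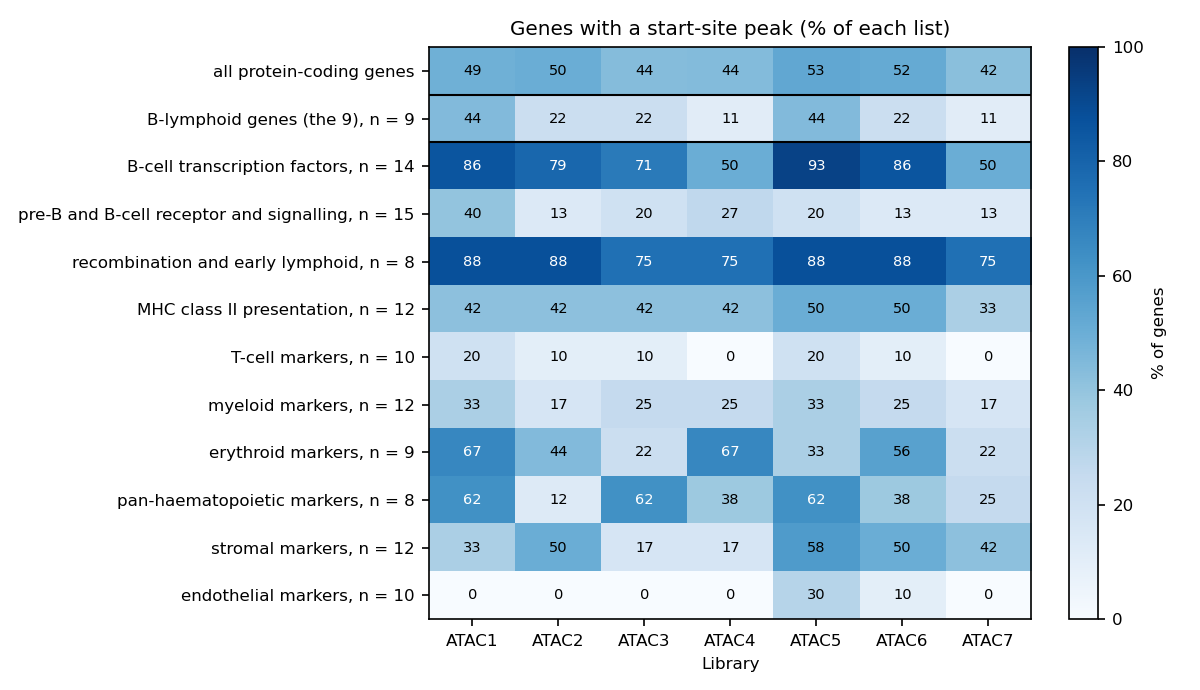
Share of each gene list (rows, in percent, with n annotated genes) that had a start-site peak in each library (columns), with all protein-coding genes in the top row and the 9 B-lymphoid genes below. The B-cell transcription factors lie between 50% and 92.9%, and the 9 genes between 11.1% and 44.4%.

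Other genes of B cells were counted the same way, in lists chosen with earlier results of these data known. Of 14 B-cell transcription factors, 13 had a start-site peak in ATAC5, 12 in ATAC1 and ATAC6, 11 in ATAC2, 10 in ATAC3 and 7 in ATAC4 and ATAC7. *Tcf3*, *Ikzf1*, *Foxo1*, *Bach2*, *Bcl11a* and *Sfpi1* had one in all 7, and most of these factors also act in other cells. *Tcf3*, which encodes the E2A proteins, had peaks with up to 1490 reads, *Ikzf1* up to 524 and *Sfpi1*, the gene for PU.1, up to 307. At the other end, *Spib*, which encodes a relative of PU.1, had a peak in ATAC5 alone (53 reads against 13) and *Ikzf3*, the gene for Aiolos, had none. *Ebf1*, named here after its values were seen because PAX5 acts with it, had one in 6 libraries, with 70 to 193 reads and folds of 8.77 to 16.4, and none in ATAC7.

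Of 15 annotated genes of the pre-B and B cell receptor and its signalling, 6 had a start-site peak in ATAC1, 4 in ATAC4, 3 in ATAC3 and ATAC5 and 2 in ATAC2, ATAC6 and ATAC7. *Lyn*, a kinase also used by myeloid cells, was the only one called in all 7, with 71 to 293 reads. *Ms4a1*, the gene for CD20, was called in ATAC1 alone with 79 reads against 7 and a fold of 13.9, as was *Blnk*, a linker of receptor signalling, with 62 against 14. *Cr2*, which encodes a complement receptor, was called in ATAC1 and ATAC4. No library had a start-site peak at *Igll1*, *Vpreb2*, *Vpreb3*, *Cd22*, *Cd72*, *Blk*, *Btk* or *Faim3*. *Igll1* encodes the partner of VPREB1 in the surrogate light chain and *Vpreb2* is a near copy of *Vpreb1*, and reads in near-identical genes may have been placed on either or lost.

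Of 8 other genes of recombination and of early lymphoid cells, 7 had a start-site peak in ATAC1, ATAC2, ATAC5 and ATAC6. In ATAC3, ATAC4 and ATAC7 there were 6. Of all protein-coding genes, 42.2% (ATAC7) to 52.9% (ATAC5) had one. *Xrcc5*, *Xrcc6*, *Prkdc* and *Lig4* act in the joining of DNA ends in every cell, and *Hmgb1* and *Hmgb2* encode DNA-bending proteins. These 6 were called in all 7 libraries, *Prkdc* with 791 to 1522 reads, and they made up most or all of each count. *Dntt*, which encodes the terminal transferase of lymphoid progenitors, had no start-site peak in any, like *Rag1* and *Rag2*.

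Around *Cd74* and *Ciita*, 12 genes of MHC class II presentation had start-site peaks in 5 of 12 in ATAC1, ATAC2, ATAC3 and ATAC4, 6 in ATAC5 and ATAC6 and 4 in ATAC7. The 4 called in all 7 were *Rfx5*, *Rfxap* and *Rfxank*, which encode the RFX complex on class II promoters and are expressed widely, and *H2-DMa*, which encodes a chain of the peptide-loading factor. *H2-Aa*, *H2-Oa*, *H2-Ob* and the protease gene *Ctss* had none. *H2-Eb1* had a peak in ATAC5 alone (51 reads against 15) and *H2-DMb1* in ATAC6 alone (48 against 11). The H2 genes are a family of like sequences, so their calls are uncertain.

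For other cell types, the markers of T cells had a start-site peak in 0 (ATAC4, ATAC7) to 2 (ATAC1, ATAC5) of 10 and those of myeloid cells in 2 (ATAC2, ATAC7) to 4 (ATAC1, ATAC5) of 12. Of 9 annotated erythroid markers, 6 were called in ATAC1 and ATAC4, 5 in ATAC6, 4 in ATAC2, 3 in ATAC5 and 2 in ATAC3 and ATAC7. Markers of stromal cells in general were called in 7 of 12 in ATAC5, 6 in ATAC2 and ATAC6, 5 in ATAC7, 4 in ATAC1 and 2 in ATAC3 and ATAC4. Endothelial markers were called in ATAC5 (3 of 10) and ATAC6 (1) and in no other library. The T cell and myeloid counts were highest in ATAC1 and ATAC5, at 2 and 4, and the next libraries had 1 and 3. ATAC1 and ATAC5 differed in erythroid, stromal and endothelial counts. The share of all protein-coding genes with a start-site peak was 42.2% (ATAC7) to 52.9% (ATAC5).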

How the data were processed

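ATAC-seq was done on 7 libraries of bone marrow stromal cells, with 1 Input library. The authors used bowtie to align reads to mm9 and the two-sample mode of CisGenome to call each library's peaks against Input, with a p-value limit of 1e-05 and an FDR under 0.01. Versions, a shift for the transposase and the treatment of duplicates are not given in the sources used here. The deposited tables have no header, so the meaning of each column was read from its values, and starts could be off by 1 base if they count from 0. By this reading the deposited tables hold whole-number counts of library and Input reads in the outer region of each peak, a fold over Input (a ratio: a library's scale factor times its reads, divided by Input reads plus 0.01) and non-negative signal values of the peak caller, of which the ranking was used. The scale factor was constant in a library to within 0.0477%. The coordinate lists equal the tables and were not used. Depth is known only as reads in peaks.

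Peaks were set against GENCODE vM1. A start-site peak has its centre within 1000 bases of a transcript start. A peak near a gene has at least 1 base in it or within 10 kb. Peaks of different libraries that share a base were merged. Intervals are exact Poisson for reads and exact binomial for ratios of library to Input reads. With 1 library per title there was no test. The assignment of peaks to start sites and gene windows and the merging of peaks were checked on simulated data. Python 3.11.15 was used with numpy 2.4.6, pandas 2.3.3, scipy 1.17.1, pysam 0.24.0 and matplotlib 3.10.9.

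The 9 genes and the 10 other lists were chosen with earlier results of these data known. Named are all 9 genes and, of the B-lymphoid lists, genes with a start-site peak in at most 2 or in all 7 libraries. *Syk* has no entry under this name and was not counted. Some listed items are not reported here by name. Alternatives were other distances, start sets, peak lists and overlaps.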

Additional observations from a re-analysis of the deposited data

How the results depend on the processing

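Of 31 alternative counts, 13 were over 1.5 times apart from the main one. The use of coding starts alone was chosen after seeing the data, the others earlier. No paired analysis was possible because there is 1 library a title. The gene and library pairs with a start-site peak went from 16 to 10 with folds of at least 5, to 10 with the most upstream start only and to 4 with coding starts only. The pairs with a peak in or within 10 kb went from 38 to 24 in the gene body, 58 within 50 kb and 15 without other genes' starts. Under the same choices the 59 peaks became 26, 158 and 20, and the 18 merged regions 9, 45 and 9, and with 15188 peaks in each library the regions were 10. With centres within 500 bases, *Pax5* was called in 0 libraries, and with folds of at least 5 *Pax5* had 3, *Vpreb1* 4 and *Ciita* 0. Coverage between peaks was not analysed here, so accessibility under the threshold cannot be told from none, and each value rests on 1 library.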

Other observations

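Between 10 and 50 kb, further regions were called that lay at no start site. Between *Rag1* and *Traf6*, a region (chromosome 2, 101505591 to 101505832) had 81 reads against 10 Input reads in ATAC1, 62 against 9 in ATAC2, 100 against 9 in ATAC5 and 66 against 7 in ATAC6, with folds of 9.94 to 19.0. It was 15933 to 15982 bases from *Rag1*, and ATAC3, ATAC4 and ATAC7 had no peak there. On the far side of *Rag2*, ATAC1 had a peak of 67 reads and ATAC5 one of 42 reads, in different places. Beyond *Rag1*, on the side of *Traf6*, ATAC2 had a peak of 31 reads against 8 at 44280 bases from the gene. The region beyond *Il7r* had 101 reads against 11 in ATAC1 and 61 against 5 in ATAC5, with folds of 11.3 and 20.9, at 42183 and 42198 bases from the gene.

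Around *Ciita*, a region 47381 bases or more from the gene had 93 reads in ATAC5 and 38 in ATAC2. The regions between 10 and 50 kb of *Cd74* were called in ATAC1, ATAC2, ATAC5 and ATAC6, with 35 to 99 reads per peak, and that beyond *Vpreb1* in ATAC5 alone with 35 reads against 20. No peak away from a start site was called between 10 and 50 kb of *Pax5*, *Cd79a* or *Cd79b*.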
